A study of Mus musculus with 6 samples.

Results

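The 9 genes followed here belong to the response to temperature. Their RNA was measured by RNA-seq in samples labelled as injured mouse kidney, with and without chemerin-9. The 9 are 5 heat-induced chaperone genes (Hspb1, Hspb8, Cryab, Bag3 and Serpinh1), the heat shock factor genes Hsf1 and Hsf2, and the cold-induced RNA-binding genes Cirbp and Rbm3. Each was taken by its symbol from the deposited count table, and all 9 had a row among the 25189 symbols of that table. The genes were chosen by their counts in the same 2 groups, with results of that comparison in view. Their differences between the groups are therefore given as a description, with no p-value printed. Where the text says whether one of them passed a threshold, that is a description too and not a test of it. By their labels, all samples are kidney from C57BL/6 mice, wild-type and male, taken on day 2. One group of 3 libraries came from ischaemia and reperfusion (I/R), in which the blood flow of the kidney is stopped and restored. The other 3 came from I/R with C9 by their titles; the design text names Chemerin-9, a short peptide from the end of the protein chemerin. Neither an uninjured group, the animals' age nor a dose of the peptide is given in the labels, and the injury is shared by both groups. The treated columns of the count table are named IC, a name the labels do not use, and were read as I/R with C9. In 2 of the treated samples the treatment label also differs from the title, so each statement on chemerin-9 rests on that reading.

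Small heat shock proteins bind unfolding proteins and keep them from clumping, without using ATP, until other chaperones refold them. HSPB1, HSPB8 and CRYAB belong to that family and share its alpha-crystallin domain. HSPB8 works with BAG3, a co-chaperone that hands misfolded clients to autophagy, and SERPINH1 (also called HSP47) is the chaperone of procollagen in the endoplasmic reticulum. HSF1 is the main transcription factor that switches these genes on when proteins unfold, and HSF2 is a related factor. CIRBP and RBM3 are small RNA-binding proteins that cells make in greater amounts in mild cold and in smaller amounts in heat.

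RefSeq promoter windows on GRCm38.p6 were at hand for 6 of the 9 genes (Hspb1, Hspb8, Bag3, Serpinh1, Hsf2 and Cirbp, the last with 2 windows), and not for Cryab, Hsf1 and Rbm3. The bases before the start are shown for 4 genes that carry the findings: Hspb1, which differed most, Serpinh1, the most abundant of the heat-induced genes per length, Bag3, and the cold-induced Cirbp. On the plus strand the intervals are chr5:135887669-135887918 for Hspb1, chr7:128523333-128523582 for Bag3 and chr10:80167589-80167838 for the first window of Cirbp. For Serpinh1 it is chr7:99353240-99353489 on the minus strand. Each sequence runs 5′ to 3′ and ends at the base before the start of its RefSeq window. These starts can differ from those of GENCODE M21. There Cirbp begins at 80165985, so its first window lies inside the gene. Bag3 begins there at 128523616, some bases past the end of its interval. Capitals mark matches to GAANNTTC, the paired unit of a heat shock element, or to TCCCCGCC, described as a cold response element of Cirbp.
Hspb1 promoter: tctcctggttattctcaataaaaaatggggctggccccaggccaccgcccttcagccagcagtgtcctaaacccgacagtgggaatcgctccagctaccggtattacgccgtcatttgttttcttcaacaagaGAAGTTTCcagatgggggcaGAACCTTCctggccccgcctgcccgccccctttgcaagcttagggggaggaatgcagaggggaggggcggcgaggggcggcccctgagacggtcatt
Bag3 promoter: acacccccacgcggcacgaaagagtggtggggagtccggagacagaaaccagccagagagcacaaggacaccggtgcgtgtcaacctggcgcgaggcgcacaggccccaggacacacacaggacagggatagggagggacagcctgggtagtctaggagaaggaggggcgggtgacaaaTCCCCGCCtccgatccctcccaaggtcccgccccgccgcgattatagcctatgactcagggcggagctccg
Serpinh1 promoter: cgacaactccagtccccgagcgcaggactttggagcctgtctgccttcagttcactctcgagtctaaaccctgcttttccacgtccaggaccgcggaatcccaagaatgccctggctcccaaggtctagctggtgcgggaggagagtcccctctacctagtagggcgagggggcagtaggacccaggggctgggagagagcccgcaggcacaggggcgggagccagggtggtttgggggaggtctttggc
Cirbp promoter: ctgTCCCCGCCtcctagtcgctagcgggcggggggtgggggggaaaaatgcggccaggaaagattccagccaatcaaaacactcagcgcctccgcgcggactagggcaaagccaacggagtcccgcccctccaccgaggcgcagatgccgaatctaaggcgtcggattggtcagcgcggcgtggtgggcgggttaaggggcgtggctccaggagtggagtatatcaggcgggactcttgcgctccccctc

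The Hspb1 promoter held 2 copies of GAANNTTC, at -117 to -110 and -97 to -90 from the start. Among 32851 promoter windows of all genes, 6.69% held that motif at least once in the 250 bases before the start. With the 50 bases after the start included, the share was 7.86%. The share with 2 copies was not counted. Both strands were searched, on which the motif reads the same. In Hspb8 it lay at 3 to 10 and in Bag3 at 43 to 50 after the start, counting the start as 1, and it was not in the windows of Serpinh1, Hsf2 or Cirbp. The reverse order of the units, TTCNNGAA, was found in 7.17% of all windows before the start and in none of the 7 windows of these genes, with or without the 50 bases after the start. The 3-unit forms, which add another unit after NN and contain the paired ones, were found in 0.466% of all windows and in none of these 7. TCCCCGCC, or its reverse complement, was found in 4.64% of all windows. It lay at -247 to -240 in the first window of Cirbp and at -71 to -64 in Bag3, a gene of the heat-induced group. These are matches of letters, and no binding was measured.

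The libraries held 11217252 to 16938301 counts. Markers of the kidney were low in all of them. Of 17 nephron genes looked for, 10 had a row, 5 of these stayed under 1 CPM (CPM are counts scaled to the adjusted library size) in every library, and the 10 summed to 70.5 to 73.4 CPM in I/R and 51.0 to 59.7 CPM with chemerin-9. Pax8, a kidney transcription factor, made up most of that sum, at 45.5 ± 1.65 and 29.6 ± 3.17 CPM (SD, n = 3 each), followed by the water channel gene Aqp1 at 18.2 ± 0.201 and 17.7 ± 2.05 CPM. Slc12a1 and Aqp2, which define the loop of Henle and the collecting duct, were under 1 CPM. The part of these differences in the results was not tested. The 3 endothelial genes with a row stayed under 1 CPM, and the haemoglobin gene Hbb-bs had no count. The 8 genes of dividing cells summed to 4012 to 4232 CPM over all libraries. These levels go against the kidney label, so what cells the libraries hold is in doubt, and the label is used below only as a name. I/R replicate 3 stood apart: its chi-square per degree was 5.14 and 5.61 against the other I/R libraries, and theirs against each other 1.80. Each library carries its own batch value in the labels, so by those values batch and group cannot be told apart. The batch values are dates that go up by a day from each library to the next, and the treatment label goes up in the same way over the treated samples. Whether either field records a real difference cannot be told from the labels. The 18S RNA share of counts ranged from 0.381% to 0.517% among I/R libraries and from 0.261% to 0.306% among chemerin-9 libraries. Since no label ties a library to a separate animal, errors and p-values below measure the spread between libraries, which may be technical.

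All 5 heat-induced genes were lower with chemerin-9, in every library, while the fitted ratios of chemerin-9 to I/R were 1.06 for Hsf1 and 1.08 for Hsf2, and the cold-induced genes split. In the fit across all 14184 tested genes (edgeR's quasi-likelihood test, threshold of 0.05 on the Benjamini-Hochberg adjusted p), all 9 genes passed the filter on low counts. Of the 9, 6 fell, 2 rose and Hsf1 did not pass. Beside this, 51.7% of all tested genes passed, 26.1% as lower and 25.6% as higher. With libraries scaled to their total count alone, that split moved from 3699 lower and 3637 higher to 2891 and 4473, and the 9 genes to 6 and 3. The groups did not overlap in 8 of the 9 genes, 6 lower and 2 higher, against 58.5% of all tested genes (29.2% lower and 29.3% higher). Because the list was made with this comparison known, nothing is read from these counts. Less RNA per cell and fewer cells of a type cannot be told apart in bulk samples, whatever cells these libraries hold. The plot of CPM by library shows each of these values.

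**Figure D1:**
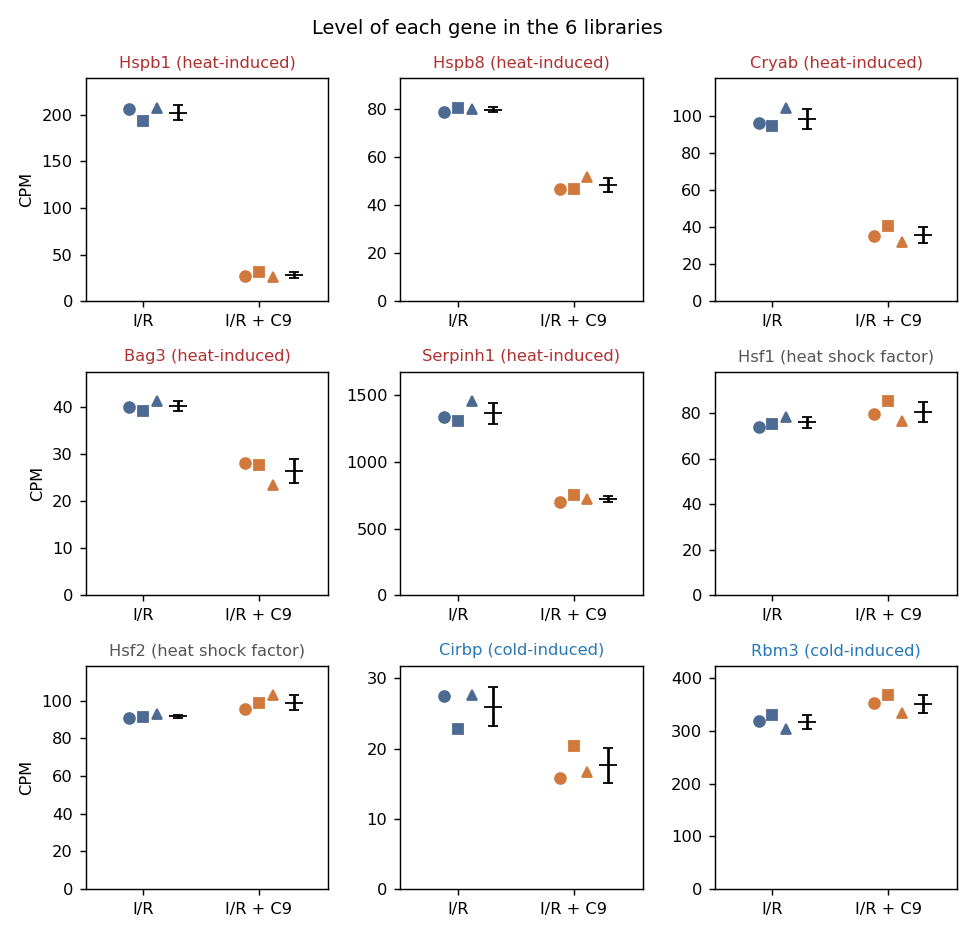
Level of the 9 genes in CPM (vertical axes, each from 0) in the 3 libraries of I/R and the 3 of I/R with chemerin-9 (C9); circles, squares and triangles are replicates 1, 2 and 3, and the black bar is the mean ± SD. The groups are far apart in the 5 heat-induced genes, and Hsf1 is the gene in which they overlap.

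Hspb1, the small heat shock protein that also guards the actin skeleton (chromosome 5, 135887919 to 135889563, GRCm38, plus strand), had the widest gap. The I/R libraries held 206, 193 and 208 CPM and the chemerin-9 libraries 27.5, 31.4 and 25.7 CPM. The lowest I/R library was thus 6.13-fold above the highest chemerin-9 library. The means were 202 ± 8.26 and 28.2 ± 2.89 CPM (SD, n = 3 each), a log2 fold change of -2.84 (standard error 0.06). It was the sixth lowest change of all tested genes, so 0.0353% of them lay below it. Behind these levels stood 2592 to 3420 counts per I/R library and 316 to 426 per chemerin-9 library. Transcripts of Hsp25-ps1 and Gm9817 match that of Hspb1 at 99.8% identity over 441 and 477 bases, and reads from such copies cannot be told from those of Hspb1.

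Cryab, which encodes alpha-B-crystallin (chromosome 9, 50751325 to 50756636, plus strand), followed. Its levels were 95.9, 94.4 and 104 CPM in I/R and 35.4, 40.3 and 31.8 CPM with chemerin-9. Every chemerin-9 library was below every I/R library, by at least 2.34-fold. The log2 fold change was -1.46 (standard error 0.07), with 0.769% of tested genes lower. An exon of Hspb2, the neighbouring small heat shock gene on the other strand, overlaps Cryab, but Hspb2 held only 0.349 ± 0.278 and 0.221 ± 0.116 CPM.

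Hspb8, the partner of BAG3 (chromosome 5, 116408491 to 116422864, minus strand), fell less. It held 78.7, 80.7 and 80.1 CPM in I/R and 46.7, 46.8 and 51.8 CPM with chemerin-9, again with no overlap. The log2 fold change was -0.72 (standard error 0.05). The I/R values lay within a coefficient of variation (SD over mean) of 1.29%, under the 2.97% that counting alone gives at these depths. In I/R this also held for Bag3 (2.58% against 4.18%), Hsf1 (2.98% against 3.04%) and Hsf2 (1.09% against 2.77%), and not for the rest of the 9 genes. With chemerin-9 all 9 genes were above the counting value, Hspb8 at 6.05% against 3.96%.

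The 3 small heat shock genes did not fall in step. The difference of log2 CPM between Hspb1 and Cryab was 1.10, 1.03 and 0.99 in the I/R libraries and -0.36, -0.36 and -0.30 in the chemerin-9 libraries. That is a shift of -1.38 on the log2 scale, beside an SD of 0.06 and 0.03 within the groups. Between Cryab and Hspb8 the same difference went from 0.30 ± 0.08 to -0.44 ± 0.25 (SD, n = 3 each). Hspb1 fell more than Cryab, and Cryab more than Hspb8. In both ratios the groups did not overlap, which also held for 58.5% of single tested genes. The share among ratios of other genes was not computed. These ratios use the counts by which the genes were chosen, so they are a description.

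Bag3, the co-chaperone (chromosome 7, 128523616 to 128546981, plus strand), held 40.0, 39.1 and 41.1 CPM in I/R and 28.1, 27.6 and 23.4 CPM with chemerin-9. The groups did not overlap, and the closest libraries were 1.39-fold apart. Its log2 fold change of -0.61 (standard error 0.08) was the smallest of the 5 heat-induced genes, and 8.73% of all tested genes were lower still.

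Serpinh1, the collagen chaperone (chromosome 7, 99345376 to 99353239, minus strand), was measured with the most counts, 8060 to 23998 per library. It held 1337, 1306 and 1456 CPM in I/R and 702, 749 and 721 CPM with chemerin-9. The groups were at least 1.74-fold apart. The coefficient of variation was 5.81% in I/R and 3.27% with chemerin-9, against 0.715% and 1.03% from counting alone. I/R replicate 3 was the highest library. The log2 fold change was -0.92 (standard error 0.04), or 47.0% less.

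**Figure D2:**
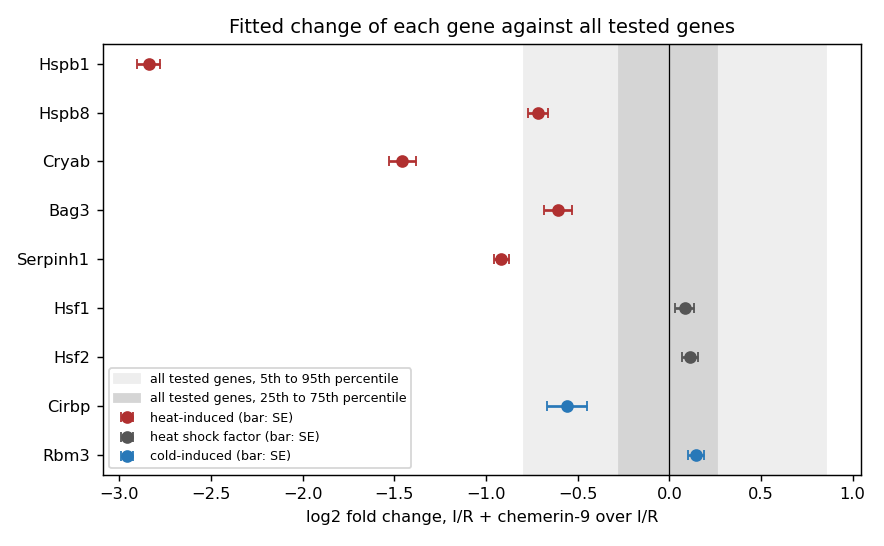
Fitted log2 fold change of I/R with chemerin-9 over I/R (horizontal axis) for each gene, with its standard error; grey bands hold the middle of all 14184 tested genes. Hspb1, Cryab and Serpinh1 lie below the 5th percentile of all tested genes (-0.80), and Hsf1, Hsf2 and Rbm3 lie between the 25th and 75th percentiles (-0.28 and 0.26).

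The genes of the heat shock factors did not follow the chaperone genes. Hsf1 (chromosome 15, 76477422 to 76501913, plus strand) held 74.1, 75.3 and 78.5 CPM in I/R and 79.8, 85.3 and 76.8 CPM with chemerin-9. The groups overlap, since the chemerin-9 library at 76.8 CPM lies below the I/R library at 78.5 CPM. The log2 fold change was 0.08 (standard error 0.05). Hsf2 (chromosome 10, 57486385 to 57513135, plus strand) held 90.9, 91.3 and 92.8 CPM in I/R and 95.5, 98.7 and 103 CPM with chemerin-9. The groups did not overlap, yet the closest libraries were only 1.03-fold apart. Its log2 fold change was 0.11 (standard error 0.04). The rise of Hsf2 did not pass with DESeq2, with no filter on low counts, without I/R replicate 1 or 2, or once chemerin-9 replicate 2 or 3 was left out. It turned to -0.03 once the trend of the changes on GC content and transcript length was removed, a setting that took Hsf1 to 0.13 and past the threshold. With libraries scaled to their total count alone, Hsf1 also passed, at 0.15. These are levels of RNA, and the activity of HSF1 was not measured.

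The cold-induced genes went opposite ways. Cirbp (chromosome 10, 80165985 to 80172786, plus strand) held 27.5, 22.7 and 27.6 CPM in I/R and 15.8, 20.4 and 16.6 CPM with chemerin-9. All chemerin-9 libraries were lower, with the closest ones 1.11-fold apart. The log2 fold change was -0.56 (standard error 0.11), close to that of Bag3. With 181 to 455 counts per library Cirbp was the most thinly counted of the 9 genes, and its coefficient of variation was 10.7% and 14.0%, against 5.19% and 6.57% from counting alone. Rbm3 (chromosome X, 8138975 to 8145880, minus strand) held 319, 330 and 304 CPM in I/R and 352, 368 and 334 CPM with chemerin-9. The chemerin-9 libraries were all higher, but the closest ones differed by 1.01-fold. The log2 fold change was 0.15 (standard error 0.04).

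The rise of Rbm3 was within reach of the processing. It did not pass without chemerin-9 replicate 2 (0.11) or with the trend on GC content and length removed (0.05). Annotated transcripts of other genes match Rbm3 at 96.1% to 99.4% identity. Those with a row, Rbm3-ps, Gm10156 and Gm48583, held 8.62% of the counts of the group of 4. Summed with Rbm3, they gave 348, 360 and 332 CPM in I/R and 386, 401 and 369 CPM with chemerin-9, a log2 fold change again of 0.15. The antisense gene Rbm3os, which overlaps Rbm3, held 0.724 ± 0.270 and 0.807 ± 0.287 CPM (SD, n = 3 each).

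Within each library Rbm3 and Cirbp moved apart. The difference of their log2 CPM, Rbm3 minus Cirbp, was 3.53, 3.85 and 3.45 in I/R and 4.47, 4.16 and 4.31 with chemerin-9. All chemerin-9 libraries were above all I/R libraries. This had to follow from the values above, since Cirbp was lower and Rbm3 higher in every chemerin-9 library, so it adds nothing to them. For Hsf2 minus Hsf1 the values were 0.29, 0.28 and 0.24 in I/R and 0.26, 0.21 and 0.42 with chemerin-9, and the groups overlap. The ratio of Hsf2 to Hsf1 thus did not differ beyond its spread.

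To set heat-induced against cold-induced genes, the mean log2 CPM of the 5 heat-induced genes was compared with that of Cirbp and Rbm3 in each library. The heat-induced mean was 7.26, 7.23 and 7.32 in I/R and 5.95, 6.04 and 5.89 with chemerin-9, a drop in all 3 libraries. The cold-induced mean was 6.55, 6.44 and 6.52 in I/R and 6.23, 6.44 and 6.23 with chemerin-9, where the second chemerin-9 library reached the I/R range. Their difference went from 0.76 ± 0.05 to -0.34 ± 0.06 (SD, n = 3 each), so the shift was -1.10 on the log2 scale. The shift was smaller, -0.72, without Hspb1, and -0.75 with Cirbp as the only cold-induced gene, against -1.45 with Rbm3 as the only one. The mean of the 5 heat-induced genes was lower relative to either cold-induced gene, and the size of the gap depends on which one is taken. This does not hold for each gene: the log2 fold changes of Bag3 (-0.61) and Cirbp (-0.56) differ by less than either standard error, and without chemerin-9 replicate 2 they were -0.65 and -0.68. Without I/R replicate 3 the gap between heat-induced and cold-induced genes shifted by -1.08.

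**Figure D3:**
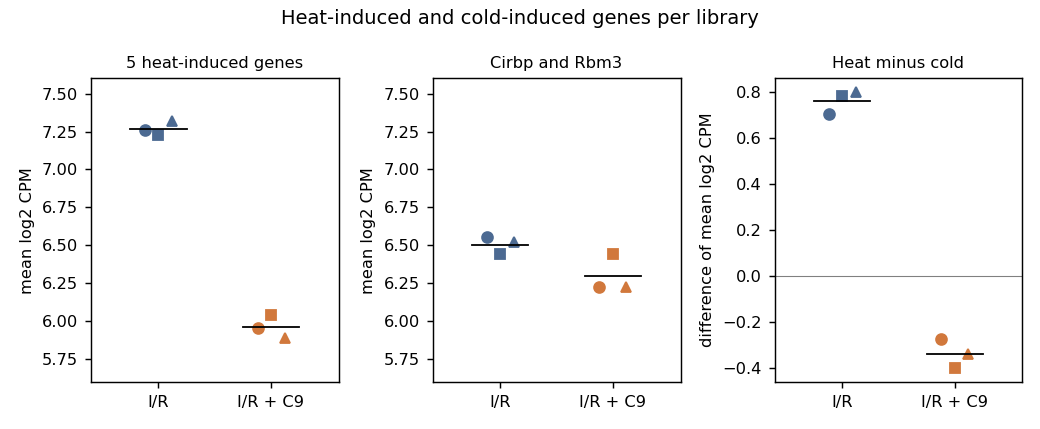
Mean log2 CPM of the 5 heat-induced genes (left), of Cirbp and Rbm3 (middle) and their difference (right) in each library; symbols are replicates and lines are means. The difference lies between 0.70 and 0.80 in I/R and between -0.40 and -0.27 with chemerin-9.

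Levels of different genes were compared per length, as TPM, which are counts per kilobase of exon scaled to the same total in each library. This scale has no adjustment for composition, so its differences between groups are not those of the fit. In I/R, Serpinh1 stood first at 2028 ± 76.6 TPM and Hspb1 next at 711 ± 27.7 TPM (SD, n = 3). Rbm3 (245 ± 15.0) and Cryab (240.8 ± 8.003) overlapped, and Hspb8 (149 ± 3.08) and Bag3 (56.8 ± 0.945) came next. Hsf1 (38.8 ± 0.271), Cirbp (36.1 ± 3.71) and Hsf2 (34.6 ± 0.419) were lowest, and Cirbp overlapped both factors. With chemerin-9 the order changed below Serpinh1, which held 1186 ± 29.0. Rbm3 was second at 299 ± 14.1. Hspb1 (110 ± 10.7), Hspb8 (99.4 ± 5.84) and Cryab (97.0 ± 11.2) overlapped between libraries. Within each chemerin-9 library Hspb1 was still above Cryab, and it was above Hspb8 in 2 of 3. Bag3 (41.2 ± 4.11) overlapped Hsf1 and Hsf2, and Cirbp was lowest at 27.0 ± 3.58. With the longest transcript as the length, Bag3 was lowest in both groups (43.6 and 31.4), and with chemerin-9 the mean of Cryab (98.0) passed that of Hspb1 (92.7).

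**Figure D4:**
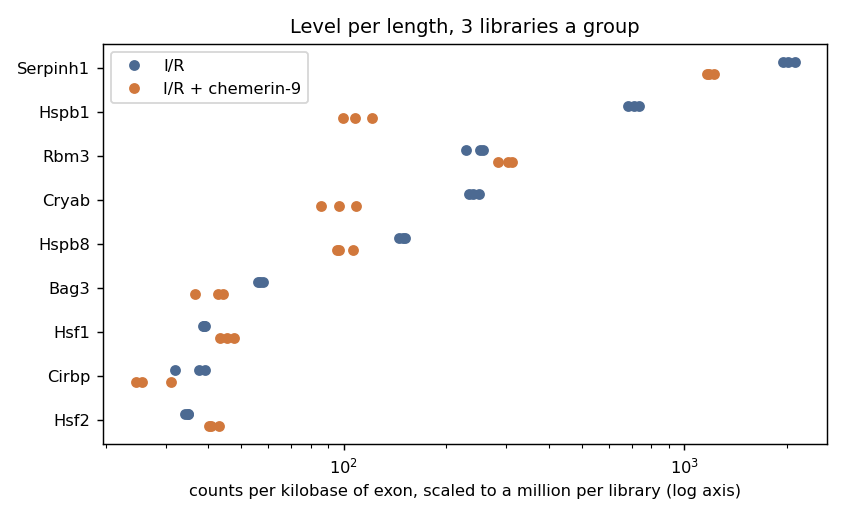
Counts per kilobase of exon, scaled to the same total in each library (TPM, log axis), for each gene in the 3 libraries of each group. Hspb1 lies between 683 and 739 in I/R and falls to between 99.7 and 121 with chemerin-9, where it overlaps Hspb8 and Cryab.

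Related genes were taken from lists by function. These lists were also chosen with earlier results of these data known, so their counts and medians are given as a description. Over all these lists 71 genes outside the 9 had a row and 58 were tested. Of the 58, 33 fell and 12 rose by edgeR's adjusted p, beside 26.1% and 25.6% of all tested genes. Those shares also stand beside each list below, and nothing is read from the counts of lists with a few genes. Of 18 tested HSF1 targets outside the 9, 15 fell and 1 rose, with a median log2 fold change of -0.53 against -0.0037 for all tested genes. The 4 with the smallest p were Hspa8 (-2.06), Hsp90ab1 (-1.14), Hsp90aa1 (-1.06) and Hspa4l (-1.12), all general chaperones, each with a standard error of 0.02 to 0.04. Hspa4, a relative of the HSP110 chaperones, was the gene that rose, by 0.37, and was picked out after its value was seen, as were Dnajb4 (-0.03) and Stip1 (-0.07), which did not pass. Transcripts of other genes match Hspa8 at up to 100% and Hsp90aa1 at up to 99.5% identity, so their counts are uncertain. Hspb6, Hspb7, Sqstm1, Ybx1, Carhsp1, Mapkapk5, Rbmxl1 and Col3a1, named below, also have such copies.

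Of the rest of the small heat shock family 7 genes had a row, 3 were tested and 1 fell. Hspb11, a ciliary transport protein, fell by 0.32 on the log2 scale (adjusted p = 0.016, edgeR), a call lost once replicate 3 of I/R (-0.26) or of chemerin-9 (-0.30) was left out. Hspb6, the family member of smooth muscle and heart, held 23.8 ± 1.71 and 22.8 ± 1.88 CPM (adjusted p = 0.61, edgeR), and Hspb7 was under 1 CPM on average in both groups. The other 4 (Hspb2, Hspb3, Hspb9 and Odf1) did not pass the filter. The list's median was -0.06.

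Of the 5 other BAG genes 2 fell and 2 rose. Bag1 and Bag6, which act with HSP70 and at membrane-protein quality control, fell by 0.45 and 0.42 on the log2 scale (adjusted p = 5.7e-06 and 2.4e-07, edgeR). Bag4 and Bag5 rose by 0.25 and 0.22, the latter not without chemerin-9 replicate 1 or 2 (0.19 each), and Bag2 did not pass (-0.17). Of 4 tested partners of BAG3 and HSPB8 in autophagy 3 fell. Beside Hspa8 they were Sqstm1, the autophagy receptor p62 (-0.50), and Ywhag, an adaptor protein (-0.40). The ubiquitin ligase gene Stub1 had a log2 fold change of -0.25 (adjusted p = 0.058, edgeR). It passed without I/R replicate 1 (-0.31) or 2 (-0.31), with the replicate number as a block (-0.24) and without a filter on low counts (-0.25).

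Of the HSPB1 kinase pathway, in which kinases downstream of p38 phosphorylate HSPB1, 3 of 4 tested genes rose. Mapk14, which encodes p38 alpha, rose by 0.24, Mapkapk2 by 0.14 and Mapkapk3 by 0.28 (adjusted p = 4.6e-04, 0.0058 and 0.014, edgeR), the last not without chemerin-9 replicate 3 (0.25). Mapkapk5, at 3.45 ± 0.112 and 2.36 ± 0.128 CPM, fell by 0.55 (adjusted p = 0.038). That call was lost without any 1 of the 6 libraries, with DESeq2, with no filter, with the replicate block, with the trend on GC content and length removed and with total counts alone. Phosphorylation was not measured.

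Among other heat shock factor genes 2 of 6 were tested. Hsbp1, a small protein that binds HSF1, rose by 0.16 (adjusted p = 0.033, edgeR), but not with DESeq2 (0.16) or when replicate 1 or 2 of I/R, or 2 or 3 of chemerin-9, was left out (0.12 to 0.14). Hsf4, the factor of the lens, did not pass (-0.23, adjusted p = 0.16, edgeR).

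Around Serpinh1, 8 of 13 genes of procollagen folding and modification fell and 2 rose, with a median of -0.23. The prolyl hydroxylase gene P3h1 fell by 0.74, the collagen chain gene Col1a2 by 0.30, and the lysyl hydroxylase genes Plod1 and Plod3 by 0.38 and 0.36. Col1a1, the other chain of type I collagen, held 771 ± 28.2 and 800 ± 20.5 CPM and did not pass (adjusted p = 0.20, edgeR). The 2 that rose, named after their values were seen, were the collagen gene Col3a1 (0.45) and Plod2 (0.11). With total-count scaling 4 genes of this list rose, and 1 rose with no filter, without I/R replicate 1, or once chemerin-9 replicate 1 or 3 was left out.

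The relatives of the cold-induced genes also split. Of 4 tested cold shock domain genes 3 fell, Carhsp1 by 0.60, the translation regulator Ybx1 by 0.53 and Ybx3 by 0.26. Rbmx and Rbmxl1, which share the kind of RNA-binding domain found in CIRBP and RBM3, both rose, Rbmx from 30.7 ± 2.29 to 61.8 ± 4.41 CPM (log2 fold change 1.01) and Rbmxl1 by 0.21. Reads of Rbmxl1 are uncertain, since other transcripts match it at up to 99.6% identity. Of 4 tested thermosensitive TRP channel genes Trpv4 fell (-0.58), from 17.4 ± 1.10 to 11.6 ± 0.484 CPM, and Trpa1 rose (1.26), from 0.498 ± 0.0646 to 1.184 ± 0.264 CPM. Trpv2 (0.36) and Trpv3 (0.47) did not pass. The Trpa1 call was lost with DESeq2, without I/R replicate 3 (1.14) and without chemerin-9 replicate 2 (1.07).

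**Figure D5:**
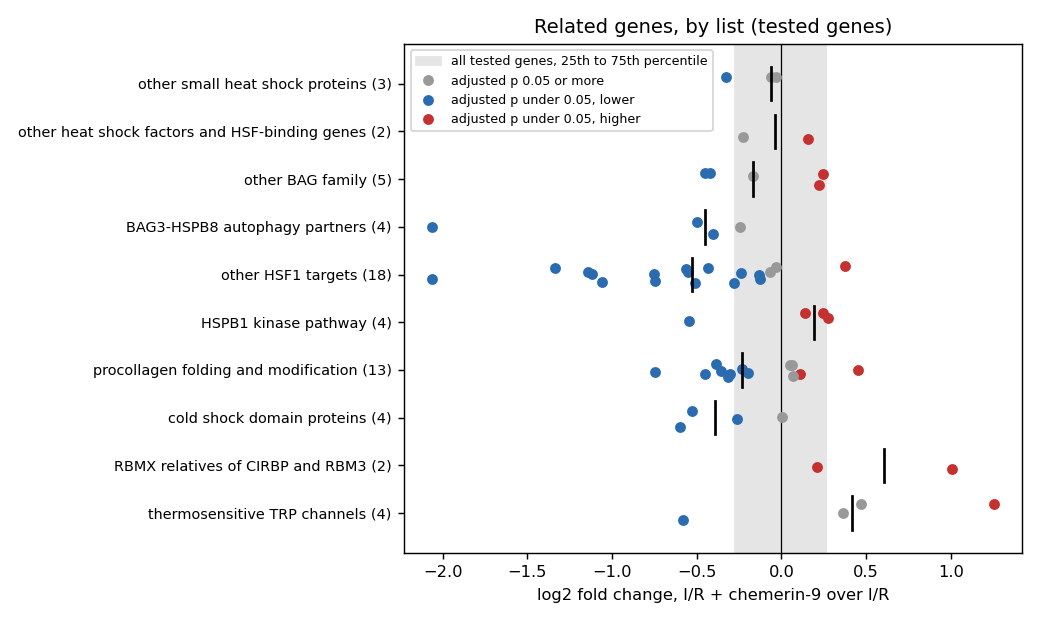
Log2 fold change of I/R with chemerin-9 over I/R (horizontal axis) for each tested gene of the related lists, with the number tested in brackets; black lines are list medians, colours give the edgeR call and the grey band holds the 25th to 75th percentile of all tested genes. The HSF1 targets have a median of -0.53, and 1 of the 18 rose. The lists were chosen with earlier results of these data known.

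Cryab, Hspb8 and Hspb6 are abundant in muscle, so muscle genes were measured beside them. Of 8 such genes 4 had a row, and their summed level was 162 to 177 CPM in I/R and 120 to 130 CPM with chemerin-9. Acta2, which activated fibroblasts also express, made up most of it and fell from 163 ± 6.90 to 116 ± 4.08 CPM (log2 fold change -0.49). Des held 6.51 ± 1.11 and 7.87 ± 0.574 CPM, and Cnn1 and Tagln were under 1 CPM on average in both groups. The 7 fibroblast and mesenchymal genes summed to 2524 to 2647 CPM in I/R and 2016 to 2102 CPM with chemerin-9, with 2 lower and 2 higher. Their part in the changes of the heat-induced genes was not tested.

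Genes with the most similar course were found by the Euclidean distance between log2 CPM values centred on each gene's mean, over the 6 libraries and 10875 genes. For Hspb1 they were Rsad2 (distance 0.26), Oasl2 (0.30), Oas3 (0.46) and Ifit3 (0.52). Where the groups lie far apart, as for Hspb1, this distance mostly reflects the difference between groups, which was in view when the 9 were chosen. Likeness to Hspb1 therefore shows little beyond a like fold change. Rsad2 and Ifit3 were also low with chemerin-9, at 1.02 and 1.84 CPM on average. For Bag3 they were Zfp449 (0.06), Tradd, Inppl1 and Limk1 (0.10 each), and for Hsf1 Aifm1 (0.04), Mtfr1l, Cntrl and Eno3 (0.05 each). For Cirbp they included Gadd45g (0.13), Bcat2 (0.14) and Slc25a28 (0.15), and for Rbm3 they were Ap1m1, Tsen15 (0.05 each), Tsn and Hat1 (0.06 each). The log2 fold changes of the nearest gene were -2.97 for Rsad2 (Hspb1), -0.62 for Zfp449 (Bag3), 0.06 for Aifm1 (Hsf1) and 0.13 for Ap1m1 (Rbm3).

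The authors' deposited log2 fold changes compare the same libraries, so they are no separate evidence. They had the same sign for all 9 genes, within 0.00477 of those fitted here. By the FDR of the authors' deposited table, 7 of the 9 were under 0.05, and Hsf1 and Hsf2 were not.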

How the data were processed

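RNA was measured in 6 libraries, 3 a group, made from total RNA with a stranded mRNA kit per the labels' protocols. The deposited file gives raw counts for each gene symbol. HISAT2, HTSeq, DESeq 1.18.1 and mm10 are named in the submitters' processing notes, and for the strand setting the sources used here give nothing. The authors' log2 fold change, their linear fold ratio and their p-value with its FDR are deposited beside the counts. Of 25216 rows, 27 that repeated another row's symbol and counts were removed. Starts in the table matched GENCODE M21 on GRCm38 for 97.5% of matched genes.

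Treated columns are named IC, while the treated samples' labels name columns with the letter S. IC was read as I/R with C9, and every statement on chemerin-9 rests on that reading. The treatment field of 2 treated samples also names another C number, and the titles were followed.

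Counts were fitted with edgeR 4.0.16 in R 4.3.3 (TMM factors, filterByExpr, quasi-likelihood test on group, Benjamini-Hochberg adjustment over 14184 genes, threshold 0.05). A standard error is the log2 fold change over the square root of the F statistic. Log2 CPM used a prior count of 2. Levels per length used the union of a gene's exons in GENCODE M21. Alternatives used DESeq2 1.42.0, voom of limma 3.58.1, other size factors and filters, a replicate block, a correction for GC content and length, and each library left out. Copies were searched with BLAST among GENCODE M21 transcripts, keeping matches of 95% identity or more that span 50% of the shorter transcript. The procedures were tested on simulated data.

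The 9 genes and the related lists were chosen with earlier results of these data known. The text names the 9 genes, up to 4 genes of each list with the smallest p, and the 4 nearest patterns of 5 of the 9. A few genes that this rule names are not reported here. Hspa4, Dnajb4, Stip1, Bag2, Col1a1, Col3a1 and Plod2 were named after their values were seen, and the copies, overlapping genes and markers are given beside the results they touch.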

Additional observations from a re-analysis of the deposited data

How the results depend on the processing

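The alternatives refit the counts by which the 9 genes were chosen, so their calls describe the processing and support nothing about these genes. Over 18 alternatives the log2 fold change was -2.93 to -2.64 for Hspb1 and -0.68 to -0.47 for Cirbp, and those of Hspb8, Cryab, Bag3 and Serpinh1 were also negative. The number of the 9 genes that passed as higher, 2, was 1 with DESeq2, with the GC and length trend removed (then Hsf1), with mitochondrial and haemoglobin genes left out, with no filter on low counts and with the replicate number as a block, 0 to 2 when a library was left out and 3 with total counts alone. Hsf2 did not pass with DESeq2 (log2 fold change 0.11), with no filter (0.11), with mitochondrial and haemoglobin genes left out (0.11) or with the replicate block (0.11), and reversed to -0.033 with the GC and length trend removed. Leaving out a library gave 0.080 to 0.13 for Hsf2 and 0.11 to 0.18 for Rbm3, and Rbm3 lost its call with the trend removed (0.055). Hsf1 passed with the trend removed (0.13) and with total counts alone (0.15). Total counts and the sum of Rbm3 with its copies were added after the data were seen. The cause of these changes was not tested.

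The replicate numbers showed no clear pairing of the samples, though 3 libraries a group are too few to exclude one. Same-numbered libraries had correlations of their deviations of 0.10, -0.05 and 0.04, and not every library correlated best with its own number. With the replicate block 51.5% of genes passed, against 51.7%. For the gap between heat-induced and cold-induced genes, leaving out a gene gave, as the shift, -1.25 (Hspb8), -1.28 (Bag3), -1.20 (Serpinh1), -0.72 (Hspb1), -1.45 (Cirbp) and -0.75 (Rbm3). Among uncalled related genes, Hspb7 changed sign with limma-voom (0.14), the replicate block (0.012), the trend removed (0.061) and total counts (0.034), and ranged from -0.39 to 0.54 when a library was left out. Hspb6 changed sign with the trend removed (0.016) and total counts (0.0094). With no filter, 5 autophagy partners fell in place of 3. Of all tested genes 44.5% passed with DESeq2 and 31.5% of 24567 with no filter. Depth limits Cirbp most, at 181 counts in the shallowest library.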
